A study of Brassica napus with 24 samples.

Results

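The leaves of water-deficit (WD) plants held at mild shortage were compared with those of WD plants that had only just reached it, in 6 of the 24 leaf RNA-seq libraries of a Brassica napus (rapeseed) experiment. The 6 libraries were chosen by their labels alone: 3 were harvested 5 d after watering stopped, when every WD pot had fallen below 50% of field capacity (FC, the water that the soil holds against drainage), and 3 at 18 d, after the pots had been kept at 50% FC. All plants were wild type of the cultivar Trezzor, grown in a greenhouse at 80% FC for 30 days before treatment, and were 35 and 48 days from planting at the 2 harvests, 13 days apart (the labels' protocol gives 12 days at the level). Each library was made from the blades of leaves that grew after shortage began, and per the study's methods each replicate pooled 2 plants, with 3 independent replicates in a group. The study's text gives its 5 d pots a level lower than 50% FC, so early soil may have been drier than late soil. It does not describe the 18 d group, for which its methods are taken to hold. Well-watered controls, kept at 80% FC, were harvested with them (3 libraries at each date). They were used as the reference for what changed in leaves over the same days. The WD comparison alone holds leaf age, plant age, length of shortage and any difference in soil water together, which cannot be told apart in it.

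A leaf under drying soil closes its stomata under the control of abscisic acid (ABA), makes protective proteins such as dehydrins and other late embryogenesis abundant (LEA) proteins that shield membranes and enzymes, and adjusts its ion and sugar content. Ageing leaves, watered or not, dismantle their chloroplasts and send nitrogen and minerals to younger organs, a process steered in large part by NAC and WRKY transcription factors. In bulk leaf RNA, fewer cells of a type and less RNA per cell cannot be told apart.

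The 6 WD libraries held between 14054531 and 16896577 read pairs on genes, and 54835 genes were tested. One late library stood apart. Over all genes, the root mean square difference in log2 normalised count was 0.634 between late WD replicates 1 and 2, while replicate 3 lay 1.10 and 1.15 from them and 0.678 to 0.755 from the early WD libraries, whose own distances were 0.523 to 0.60. Its nearest neighbour among all 24 libraries was a WD library of the harvest labelled 25% FC at the first stage (0.577), and it lay 0.807 to 0.865 from the early controls. Replicate 3 was thus nearer to the early than to the late WD leaves, whereas late replicates 1 and 2 lay 1.29 to 1.38 from the early ones. Of the 3 WD libraries of that 25% FC harvest, 2 had late WD replicate 3 as their own nearest neighbour. The labels date that harvest to 5 d, while the study's text places 25% FC later. Whether late WD replicate 3 carries its right label was not tested, and every late WD mean and call with all libraries rests on that label. Counts below are given with and without this library, and single genes with its value beside the others.

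**Figure D1:**
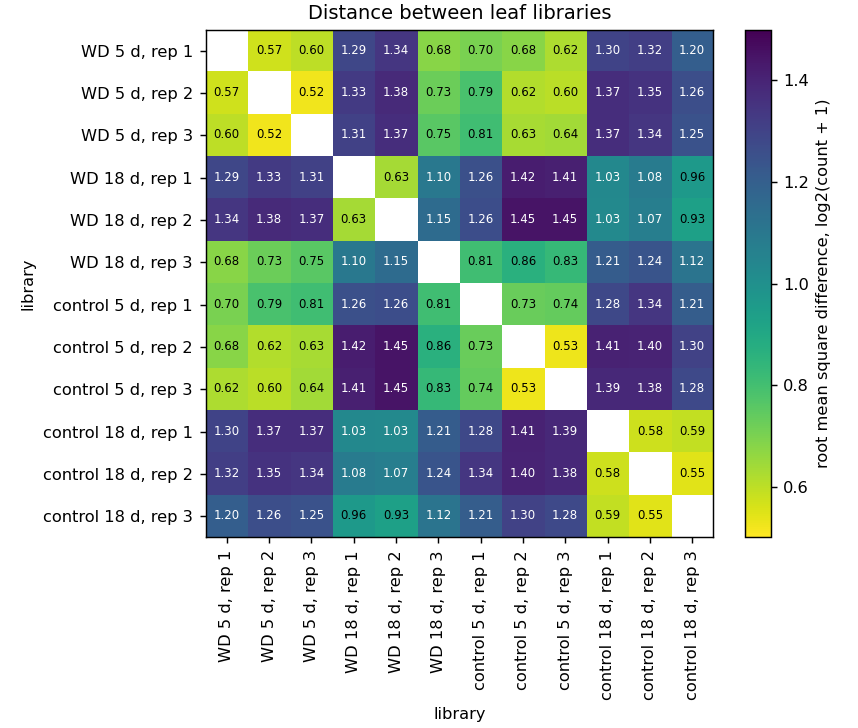
Root mean square difference in log2(normalised count + 1) over all tested genes between each pair of the 12 libraries at the 2 harvests; rows and columns are libraries, and darker cells are larger distances. Late WD replicate 3 is 0.68 to 0.75 from the early WD libraries and 1.10 to 1.15 from its own group.

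The leaf label was checked against annotated marker genes. All 3 annotated chlorophyll a/b-binding genes, which encode the light-harvesting antenna, were present, with summed normalised counts (read pairs scaled to the mean library) of 1270, 912 and 986 in early WD leaves and of 557, 384 and 611 in late ones. No annotated gene matched the seed storage or flower markers, and none matched the leaf marker Rubisco small subunit either. Only the 2087 annotated genes, which the study had called in these leaves, could match, so the check cannot tell organs apart. The text "pollen" was found in 7 genes that carry an expansin or pollen allergen annotation, which is no sign of pollen.

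Between 5 d and 18 d, 4414 genes rose and 1396 fell in WD leaves (edgeR's quasi-likelihood test with Benjamini-Hochberg adjustment, adjusted p of at most 0.05), so that 10.6% of genes were called, 8.05% as risers and 2.55% as fallers. The median log2 change of the risers was 2.08 and that of the fallers −1.06, against −0.00 over all genes. The early and late groups did not overlap in 4996 of the 5810 called genes (86.0%), against 31.4% of all genes tested. In 3399 of the 4414 risers (77.0%) late replicate 3 was nearer to the early mean than to the mean of late replicates 1 and 2. Among the 1396 fallers this was so in 511 (36.6%). All these genes were called with replicate 3 in the test, which favours changes that it shared. The shares therefore do not describe how replicate 3 behaved over all rising or falling genes. Without replicate 3 the calls increased to 7186 risers (13.1%) and 4825 fallers (8.81%), among them 98.8% of the risers and 93.3% of the fallers found with all libraries.

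The counts also depended on each of the other WD libraries. Leaving out early replicate 1, 2 or 3 gave 2453, 1811 and 2526 risers and 510, 382 and 587 fallers. Leaving out late replicate 1 gave 1874 risers and 215 fallers, and leaving out late replicate 2 gave 1544 and 183. With the 6 WD libraries fitted alone, 22 genes rose and 2 fell.

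**Figure D2:**
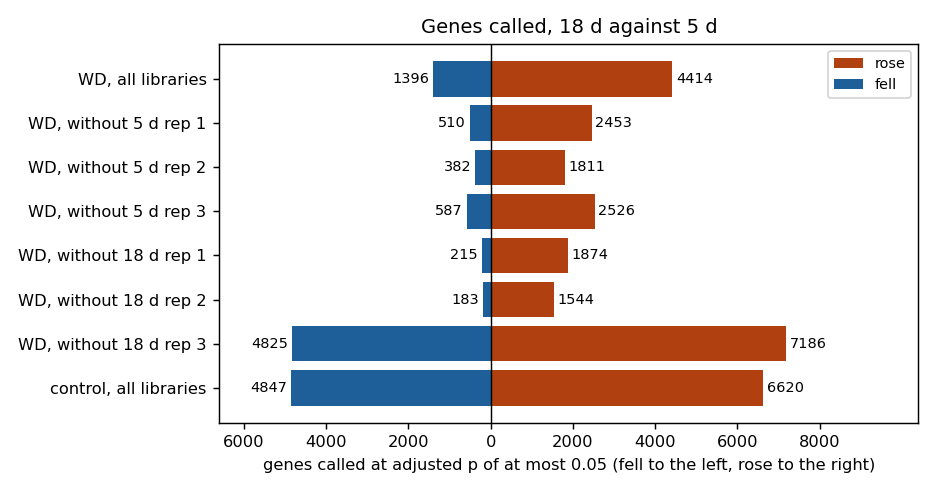
Number of genes called at an adjusted p of at most 0.05 between 5 d and 18 d, fallers to the left and risers to the right of 0, with all libraries and with each WD library left out, and in the controls. Leaving out late WD replicate 3 raised the counts from 4414 and 1396 to 7186 and 4825, and leaving out any other WD library lowered them.

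Well-watered leaves changed over the same days too. In the controls 6620 genes rose (12.1%) and 4847 fell (8.84%). Of the WD risers, 2422 also rose in the controls, which is 54.9% of the WD risers and 36.6% of the control risers. Of the WD fallers, 585 also fell in the controls, which is 41.9% of the WD and 12.1% of the control fallers. Opposite calls were few, with 15 genes that rose in WD and fell in the controls and 5 that did the reverse. Across genes, the changes in WD and control leaves had a correlation of 0.66, given as a description because genes are not independent replicates. The test of the difference between the WD and the control change called 2 genes (0.00365%), or 6373 at an unadjusted p of at most 0.05. The likelihood ratio test of edgeR called 479 genes and DESeq2 599 with the same libraries, and the 12 libraries of these harvests alone gave 557, or 4869 without late WD replicate 3. Without late WD replicate 3 it called 389 genes (0.71%), of which 303 changed more towards higher and 86 more towards lower counts in WD.

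The largest WD rises among annotated genes with a mean of at least 50 counts and no overlap started from almost no transcript at 5 d. Of 83 changes of genes named by the rule for naming genes, 3 lost their call without late replicate 3, and those are given with their values below. BnaA05g34850D, a WRKY transcription factor, had 4.54, 1.19 and 3.25 normalised counts at 5 d and 992, 1488 and 14.0 at 18 d. Late replicates 1 and 2 were high and replicate 3 was just above the early range, so the groups did not overlap. Its log2 change was 8.15 (SE 1.52, adjusted p = 0.0032), and the controls gave 6.92 (adjusted p = 0.0035). BnaA03g48270D, an AP2/ERF transcription factor, had 2.27, 5.93 and 2.17 counts at 5 d and 1060, 629 and 38.0 at 18 d. That change of 7.31 (SE 1.13, adjusted p = 0.0021) had its like in the controls, at 8.37 (adjusted p = 0.0011). BnaA04g05470D, a syntaxin (a membrane fusion protein), rose by 7.32 (SE 1.25, adjusted p = 0.0023) in WD and by 8.69 (adjusted p = 0.00096) in the controls. For BnaC03g33180D (an armadillo repeat protein) and BnaC03g32010D (a C2-domain protein) only 2 and 3 read pairs were counted at 5 d, so no fold is given. Their late WD values were 419, 325 and 3.00 for the former and 366, 595 and 5.00 for the latter, with replicate 3 near the early level.

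For other strong risers the change was smaller in the controls by value, which the test of the difference called with all libraries for none of the 3 genes that follow. BnaC05g09910D, of a family of unknown function (DUF1262), had 5.67, 5.93 and 3.25 counts at 5 d and 1222, 3290 and 336 at 18 d. All late WD values were far above the early ones, replicate 3 included, and the log2 change was 8.20 (SE 1.29, adjusted p = 0.0021). In the controls the same gene had 404, 28.5 and 18.1 counts at 5 d and 350, 372 and 524 at 18 d, so that the groups overlapped and the change of 1.77 was not called (adjusted p = 0.2). The difference of the changes was 6.43 (adjusted p = 0.18), and 7.04 (adjusted p = 0.047) without late WD replicate 3. BnaC07g47150D, a cytochrome P450, had 3 read pairs at 5 d and 186, 399 and 24.0 normalised counts at 18 d, against 38.1, 3.01 and 47.7 in late controls, and the difference was not called (adjusted p = 0.36, or 0.145 without replicate 3). BnaA10g15190D, which carries a plastocyanin-like copper domain, rose by 7.69 (SE 1.45, adjusted p = 0.0034) in WD from 1.13, 0 and 6.51 counts to 645, 839 and 8.0. Late controls held 102, 80.3 and 161 counts of it, a rise of 4.82 (adjusted p = 0.019), and the difference was not called (adjusted p = 0.69, or 0.27 without replicate 3).

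The 3 largest such rises whatever the annotation were of genes with no description here. BnaA07g28660D had no read pair in the early WD libraries and 186, 344 and 7.00 counts at 18 d, a mean at least 52.6-fold higher than a floor of 3 pairs per library. BnaA01g15000D and BnaCnng19670D had 1 read pair each at 5 d and reached 908, 1301 and 43.0 and 587, 1709 and 11.0 normalised counts at 18 d. All 3 were lowest in replicate 3 within the late group.

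In the risers with the smallest p, replicate 3 lay above all early values. Ranking by p favours genes whose replicates agree, so this is no trait of these genes. BnaA09g06030D, not annotated here, had 2.27, 3.56 and 1.08 counts at 5 d and 83.9, 79.1 and 34 at 18 d, a log2 change of 4.79 (SE 0.39, adjusted p = 2.4e-05). Its counts stayed at 1.51 to 5.02 in all 6 controls, where the change was 0.29 (adjusted p = 0.78). The difference was 4.50 (adjusted p = 0.056) with all libraries and 4.46 (adjusted p = 0.014) without replicate 3. BnaC03g39060D, also without annotation, rose from 96.4, 74.7 and 65.1 to 1235, 1639 and 1407 counts in WD, with late replicate 3 between the other two. Its change of 4.17 (SE 0.49, adjusted p = 0.0015) was met by 4.04 (adjusted p = 0.00042) in the controls.

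The largest falls included Myb transcription factors. BnaC05g00840D had 2049, 2053 and 1562 counts at 5 d and 418, 322 and 478 at 18 d, and BnaA10g00780D, with the same annotation on the other subgenome, had 3136, 3505 and 3793 and then 666, 616 and 991. All late values, replicate 3 included, were far below all early ones. The rule that named these genes asked for groups without overlap, so the agreement of replicate 3 is no trait of theirs. The log2 changes were −2.20 in both, with SE 0.23 and adjusted p = 0.00045 for the former and SE 0.24 and adjusted p = 0.00076 for the latter. BnaAnng17890D changed by −2.0 (SE 0.25, adjusted p = 0.0021). In the controls BnaC05g00840D, BnaA10g00780D and BnaAnng17890D changed by −0.43, −0.48 and −0.66, with adjusted p of 0.17, 0.15 and 0.047 in the same edgeR test. The differences from the controls were not called with all libraries (adjusted p = 0.1, 0.13 and 0.18) and were called without replicate 3, at −2.01, −2.03 and −1.86 with adjusted p = 0.013 in each.

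Of the 18 annotated genes of that Myb entry (InterPro "Myb domain, plants", a description chosen after the counts were seen), 12 fell and 3 rose in WD leaves, with a median log2 change of −1.23. In the controls 1 fell and 4 rose, with a median of −0.29. Without late WD replicate 3, 13 fell and 4 rose in WD. Replicate 3 was nearer to the early mean in 4 of the 12 fallers, which were called with it in the test. The difference from the controls was called for 4 of the 18 genes without replicate 3 and for 0 with it. The 3 risers of the entry, BnaC06g25000D, BnaC03g01730D and BnaC09g50770D, rose by 1.45, 2.98 and 3.98 in WD and by 1.54, 2.96 and 4.90 in the controls. These families are those members that the study had called between WD and control leaves at some harvest, in part on the same early WD libraries, so they are not whole families and not independent of the data. Among all 2087 such annotated genes 56.5% rose and 10.5% fell in WD, and 55.8% rose and 6.71% fell in the controls.

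A family that split within itself was DUF221, the family of the hyperosmolality-gated calcium channels (OSCA) of Arabidopsis, also picked after its counts were seen. Of its 10 members 6 rose and 4 fell in WD leaves, and 0 rose and 0 fell in the controls. The WD share of risers is near the 56.5% over all annotated genes, of which 10.5% fell. In the controls 55.8% of all annotated genes rose and 6.71% fell. BnaC03g29810D, named OSCA1 in the study's list, had 372, 320 and 273 counts at 5 d and 984, 1470 and 615 at 18 d. Its late values all lay above the early ones, with a log2 change of 1.66 (SE 0.32, adjusted p = 0.0037), against 0.33 (adjusted p = 0.49) in the controls. BnaA01g18580D, which fell, had 370, 315 and 251 counts at 5 d and 83.9, 80.2 and 124 at 18 d. Its change was −1.65 (SE 0.21, adjusted p = 0.0021), against −0.55 (adjusted p = 0.063) in the controls. The difference from the controls was called for BnaA01g18580D alone, and only without replicate 3 (−1.49, adjusted p = 0.014). The strongest riser, BnaA08g25990D, went from 98.7, 91.3 and 81.3 to 661, 1671 and 285 counts, but its early control values were 450, 99.7 and 89.7, so that 1 early control was within the range of late WD leaves.

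Other annotated genes with large falls were varied. BnaAnng39320D, BnaA02g30450D and BnaC02g38780D, which carry tetratricopeptide repeats, changed by −6.58, −3.01 and −2.38 in WD. For BnaAnng39320D the early WD values were 71.5, 103 and 269 and the late ones 1.31, 4.46 and 1.0, while early controls held 7.79, 59.6 and 4.52. Early WD leaves were the highest of the 4 groups and late WD leaves the lowest. BnaC03g08260D, of the squalene and phytoene synthase type that starts sterol and carotenoid synthesis, changed by −2.24 (SE 0.42, adjusted p = 0.0032), against −0.65 (adjusted p = 0.24) in the controls. BnaCnng12240D, a Dof zinc finger factor, changed by −2.11 (SE 0.36, adjusted p = 0.0023) in WD and by −1.37 (adjusted p = 0.0074) in the controls. BnaC02g01440D, an acyltransferase, had 782, 793 and 800 counts at 5 d and 187, 213 and 259 at 18 d, and it also fell in the controls (−1.84 in WD and −2.51 there). BnaC04g49640D, a glycoside hydrolase of family 1, and BnaA03g36840D (DUF3700) changed by −3.78 and −2.06 with all libraries but were not called without replicate 3 (adjusted p = 0.068 and 0.077).

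The 3 largest falls whatever the annotation, by the same limits, were of genes without annotation. BnaA03g02060D had 129, 234 and 437 counts in early WD leaves and 3.93, 1.11 and 0 in late ones, a change of −7.90 (SE 1.54, adjusted p = 0.0039). BnaA07g37260D went from 57.9, 161 and 397 to 1.31, 1.11 and 0, and BnaC03g03110D from 37.4, 72.3 and 216 to 1.31, 0 and 0. In each the early WD values differed by more than 3-fold among themselves, and 1 of the 3 early controls, replicate 2, lay within their range (164, 86.8 and 40.1 counts).

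Genes of the photosynthetic light reactions fell together. All 5 annotated members fell in WD leaves, with a median log2 change of −1.01, and all 5 fell without replicate 3. Over all annotated genes 10.5% fell in WD and 12.7% without replicate 3. BnaC02g44590D, a chlorophyll a/b-binding protein, had 256, 237 and 259 counts at 5 d and 131, 76.9 and 126 at 18 d. All late values were below all early ones, and the change was −1.19 (SE 0.22, adjusted p = 0.0032), while the controls gave −0.01 (adjusted p = 0.98). BnaC05g04700D, the photosystem II subunit PsbW, changed by −1.09 (SE 0.27, adjusted p = 0.017) in WD and by −1.31 (adjusted p = 0.0039) in the controls. In the controls 3 of the 5 fell and 1 rose, and the riser was BnaCnng14300D, another antenna gene. It had 808, 479 and 512 counts in early and 328, 227 and 330 in late WD leaves, but 1159, 971 and 879 in early and 2079, 1742 and 1177 in late controls. The changes were −1.01 (adjusted p = 0.015) and 0.73 (adjusted p = 0.044), and their difference was called without late WD replicate 3 (−1.87, adjusted p = 0.038).

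Lists for growth moved less evenly, where 56.5% of all annotated genes rose and 10.5% fell in WD. Of 12 annotated ribosomal protein genes 4 fell and 1 rose (median −0.78), or 6 and 3 without replicate 3, and in the controls 2 fell and 2 rose. Among 5 genes for histones and cell division, BnaA09g09460D (linker histone H1) and BnaAnng00400D (histone H2A) rose by 1.74 (adjusted p = 0.034) and 1.29 (adjusted p = 0.0032). Both rose in the controls too, by 1.96 (adjusted p = 0.018) and 0.80 (adjusted p = 0.027). BnaA08g21740D, a cyclin, changed by −1.29 (adjusted p = 0.029) in WD and by −0.46 (adjusted p = 0.37) in the controls. In the cell wall loosening list 3 of 8 genes rose and 1 fell, and without replicate 3 these were 4 and 4. BnaA03g50050D, which carries the domain of xyloglucan endotransglucosylases that rejoin wall polymers, had 153, 53.3 and 131 counts at 5 d and 2324, 1737 and 122 at 18 d. Replicate 3 lay within the early range there, so the groups overlapped although the change of 3.55 (SE 0.83) was called (adjusted p = 0.011). BnaA03g42880D, an expansin, rose in all late WD leaves, from 4.54, 5.93 and 9.76 to 80.0, 37.9 and 61.0 counts, and stayed at 2.01 to 5.6 in all controls. BnaC01g20780D, another expansin, changed the other way, by −1.45 (SE 0.43, adjusted p = 0.037).

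Of 25 LEA proteins and dehydrins 16 rose and 0 fell in WD leaves, with a median log2 change of 2.57, and 22 rose without replicate 3, which was the lowest of the late WD libraries in all 25. Of all annotated genes 56.5% rose, and 69.7% without replicate 3, so the share with all libraries is not far above theirs. Of the 7 dehydrins 6 rose (median 1.90), and 7 without replicate 3, against 0 in the controls (median 0.72), but the difference from the controls was called for none of them with or without replicate 3. The abundant dehydrin BnaC06g36880D had 4963, 4213 and 4504 counts at 5 d and 16020, 20344 and 7221 at 18 d, a change of 1.65 (SE 0.35, adjusted p = 0.0061) with no overlap. Its controls held 6039, 3779 and 4456 counts at 5 d and 6975, 6677 and 9761 at 18 d. BnaC02g45160D, the dehydrin with the largest change, went from 9.08, 5.93 and 3.25 to 536, 217 and 23.0 counts in WD, and late controls held 25.8, 24.1 and 15.1. Of the 16 LEA-14 genes, 9 rose in WD and 13 in the controls, and without replicate 3 the WD count was 13 as well. BnaC03g02540D had 4.54, 8.30 and 2.17 counts in early and 1073, 884 and 24.0 in late WD leaves, and 1118, 1247 and 984 in late controls. Its change was 7.07 (SE 1.25, adjusted p = 0.0026) in WD and 8.21 (adjusted p = 0.0011) in the controls. For 2 LEA-14 genes, BnaCnng23520D and BnaAnng17910D, the WD change of 4.99 and 5.10 exceeded that in the controls without replicate 3, by 3.87 and 4.54 with adjusted p = 0.036 in both.

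**Figure D3:**
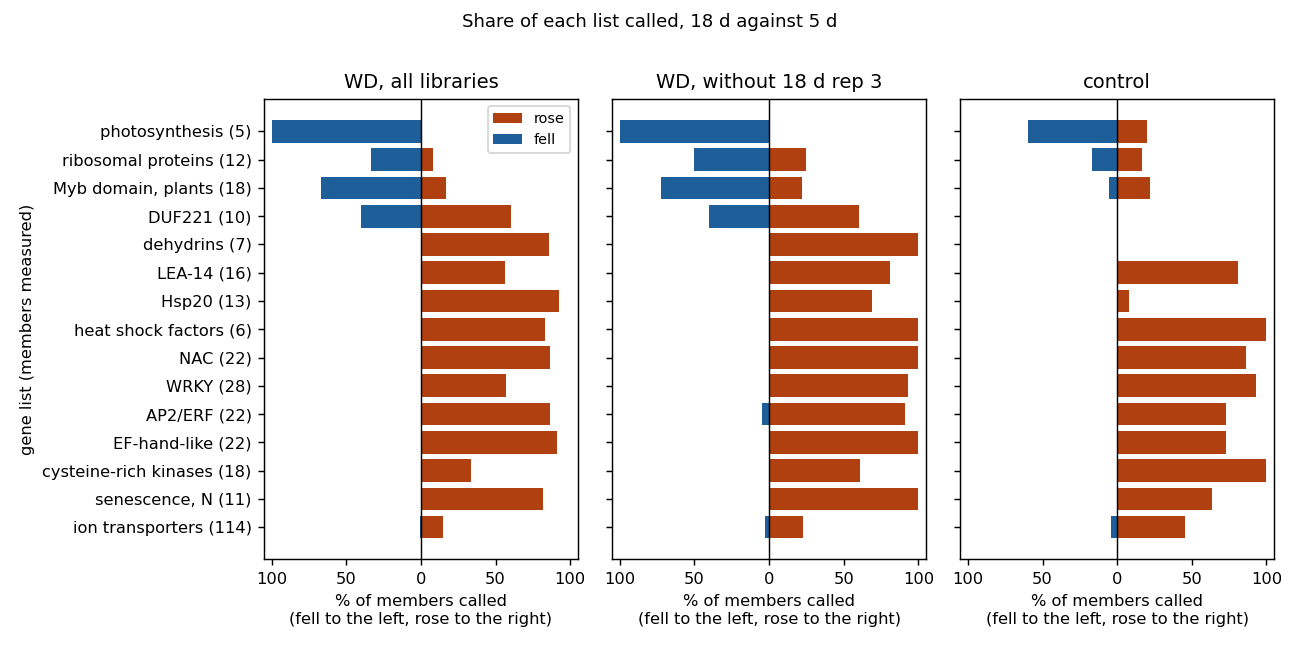
Share of the measured members of each list (number in brackets) called as risers, to the right, or fallers, to the left, between 5 d and 18 d, in WD leaves with all libraries, in WD leaves without late replicate 3 and in controls. Of 13 Hsp20 genes 12 rose in WD leaves and 1 in controls, while of 18 cysteine-rich kinases 6 rose in WD leaves and 18 in controls. Over all annotated genes 56.5% rose in WD leaves and 55.8% in controls.

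Late WD replicate 3 was the highest of the 6 WD libraries in 14 of the 26 genes of the heat shock list. Hsp20 and HSP20-like proteins are chaperones that hold unfolded proteins in solution. Of 13 such genes 12 rose and 0 fell in WD leaves (median 2.18), 9 rose without replicate 3, and 1 rose in the controls (median 1.17). Over all annotated genes 56.5% rose in WD and 55.8% in the controls. Without replicate 3 the share of these genes that rose was near the 69.7% over all annotated genes. In 8 of the 13 replicate 3 was the highest of the 6 WD libraries, which was so in 7742 of all 54835 genes. BnaA06g18100D had 99.8, 115 and 156 counts at 5 d and 370, 406 and 1086 at 18 d, with a change of 2.18 (SE 0.58, adjusted p = 0.022). BnaA03g24280D had no read pair at 5 d and 18.4, 14.5 and 111 counts at 18 d, at least 14.1-fold above the floor of 3 pairs per library. That bound rests on replicate 3, since the mean of late replicates 1 and 2 was 16.4 against a floor of 3.41 normalised counts. In both, replicates 1 and 2 were close to each other and replicate 3 was more than 2-fold higher. BnaA08g10060D went the other way, with 32.8 and 102 counts in late replicates 1 and 2 and 5.00 in replicate 3, and it is the only Hsp20 gene whose difference from the controls was called without replicate 3 (adjusted p = 0.027). Of the 6 heat shock factors, the regulators of such genes, 5 rose in WD, 6 without replicate 3 and 6 in the controls, and replicate 3 was below late replicates 1 and 2 in all 6. BnaC07g35520D, for example, had 78.3, 59.3 and 58.6 counts at 5 d and 548, 850 and 72.0 at 18 d in WD, and 657, 639 and 706 in late controls.

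Genes of hormone pathways followed. Carotenoid oxygenases include the enzymes that cut carotenoids on the way to ABA. Of the 5 annotated ones 3 rose, near the 56.5% of all annotated genes that rose, and 4 rose without replicate 3. BnaA01g29390D rose from 17, 30.8 and 17.4 to 370, 422 and 76.0 counts (log2 change 3.69, SE 0.74, adjusted p = 0.0044), and BnaCnng32080D from 12.5, 8.30 and 15.2 to 186, 197 and 41.0 (3.5, SE 0.59, adjusted p = 0.0023). Both rose in the controls as well, by 3.56 and 3.13. The most abundant member, BnaA01g09900D (named after its values were seen), had 8143, 6180 and 5186 counts at 5 d and 13862, 13846 and 12796 at 18 d. Here replicate 3 was with its group and the groups did not overlap, but the change of 1.06 (SE 0.34) did not pass the threshold (adjusted p = 0.052). In the jasmonate list all 3 TIFY genes, which encode the JAZ repressors that jasmonate removes, rose. BnaA06g13250D went from 1.13, 3.56 and 9.76 to 239, 465 and 4.0 counts, so that replicate 3 stayed at the early level (log2 change 5.55, SE 1.24, adjusted p = 0.0082). BnaA09g19550D, an allene oxide cyclase of jasmonate synthesis, had 2 read pairs at 5 d and 57.7, 44.6 and 1.0 counts at 18 d, against 7.84, 11.0 and 0.837 in late controls. The lipoxygenases BnaA02g11430D and BnaC02g15950D gave values of −1.32 and −1.20 that were not called (adjusted p = 0.063 and 0.14). The only annotated proline dehydrogenase, BnaAnng07910D, which breaks proline down, rose from 10.2, 13 and 31.5 to 185, 197 and 19.0 counts (2.90, SE 0.75, adjusted p = 0.019) and rose by 1.96 (adjusted p = 0.048) in the controls.

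Regulators of ageing and defence were called in both treatments. Of 22 NAC genes 19 rose in WD and 19 in the controls, with medians of 3.53 and 3.89, and 22 rose in WD without replicate 3. Over all annotated genes 56.5% rose in WD, 55.8% in the controls and 69.7% in WD without replicate 3. Replicate 3 was nearer to the early mean in 16 of the 19 WD risers. In BnaA02g05540D it instead rose nearly as far as its group (27.5, 24.5 and 21.0 counts, from 1 read pair at 5 d), and the controls held at most 5.6. BnaA03g08510D, from 3 read pairs, reached 91.8, 175 and 9.01 counts in WD and 128, 280 and 219 in late controls. Of 28 WRKY genes 16 rose in WD and 26 in the controls, with medians of 3.76 and 4.32, and the WD share is near the 56.5% of all annotated genes that rose. Replicate 3 was below late replicates 1 and 2 in all 28 WRKY and all 22 NAC genes, and without it 26 WRKY genes rose in WD. BnaC06g19560D, for example, had 612, 1409 and 3.00 counts at 18 d, against 3.40, 5.93 and 4.34 at 5 d. Replicate 3 there was below all early leaves.

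Of 18 cysteine-rich receptor-like kinases 6 rose in WD leaves and 18 in the controls, and 11 rose in WD without replicate 3. BnaC09g23880D had 5.67, 0 and 2.17 counts at 5 d and 125, 120 and 4.0 at 18 d in WD, and 162, 169 and 116 in late controls. BnaA08g10530D behaved alike, with 177, 283 and 5.00 counts in late WD leaves. The list's median log2 change was 3.17 in WD and 4.12 in the controls. Of 29 NB-ARC genes, the intracellular immune receptors, 19 rose and 0 fell in WD, 26 rose without replicate 3 and 26 rose in the controls. Their share of risers in WD with all libraries is not far above the 56.5% over all annotated genes. Of 186 genes with a protein kinase catalytic domain 107 rose and 2 fell in WD, near the share over all annotated genes, 145 and 6 without replicate 3, and 150 and 4 in the controls. The thaumatins, antifungal defence proteins, rose in 3 of 7 genes with and without replicate 3. These are smaller shares than the 56.5% and 69.7% over all annotated genes. BnaC02g41110D went from 90.8, 98.4 and 130 to 304, 680 and 172 counts (1.74, SE 0.35, adjusted p = 0.0046). No difference between WD and control was called for any cysteine-rich kinase, with or without replicate 3.

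Genes with the calcium-binding EF-hand-like domain, which include the sodium/calcium exchanger gene BnaA06g01060D, mostly rose. Of 22 annotated ones 20 rose and 0 fell in WD leaves, with a median of 2.31. Without replicate 3, 22 rose, against 16 in the controls. The background over all annotated genes was 56.5% risers in WD, 69.7% without replicate 3 and 55.8% in the controls. BnaA07g32970D had 18.2, 20.2 and 16.3 counts at 5 d and 2586, 2615 and 123 at 18 d, so that replicate 3 was raised but more than 10-fold below its group (log2 change 6.53, SE 1.07, adjusted p = 0.0021). It rose by 5.46 (adjusted p = 0.0024) in the controls. AP2/ERF factors, among which are known drought and ethylene response regulators, rose in 19 of 22 genes in WD and in 16 in the controls, and without replicate 3 in 20 genes with 1 falling. Both entries and this gene were picked after their values were seen, from genes that the study had called.

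**Figure D4:**
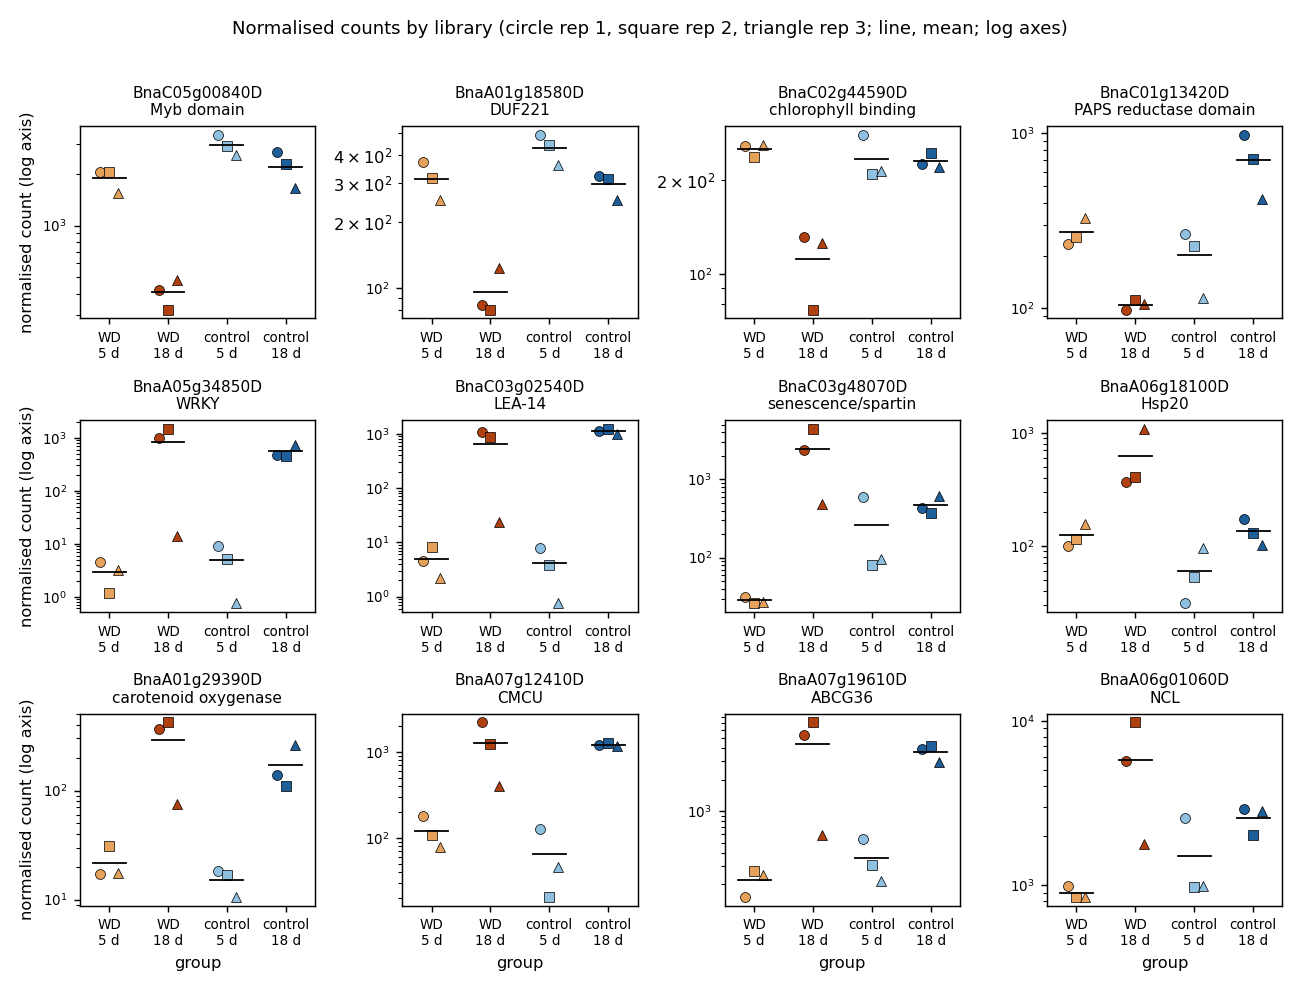
Normalised counts (log axis) of 12 genes in each library, by group (WD and control leaves at 5 d and 18 d); circles, squares and triangles are replicates 1, 2 and 3 and the line is the mean. The triangle of late WD leaves is near the early WD values for BnaA05g34850D (14.0 counts) and above its group for BnaA06g18100D (1086 counts).

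Senescence and nitrogen genes rose in 9 of 11 cases in WD, in all 11 without replicate 3 and in 7 in the controls. The shares over all annotated genes were 56.5% in WD, 69.7% without replicate 3 and 55.8% in the controls. BnaC03g48070D, of the senescence and spartin-associated family, had 31.8, 26.1 and 27.1 counts at 5 d and 2367, 4462 and 486 at 18 d. Even replicate 3 was more than 10-fold above the early WD leaves, and the log2 change was 6.26 (SE 0.87, adjusted p = 0.0021). Its controls held 596, 80.3 and 96.5 counts at 5 d and 437, 367 and 616 at 18 d, a change of 1.02 (adjusted p = 0.33), and the difference was 5.24 (adjusted p = 0.15), or 5.84 (adjusted p = 0.021) without replicate 3. BnaC07g06930D of that family rose by 3.45 (SE 0.62, adjusted p = 0.0027), against 1.07 (adjusted p = 0.21) in the controls. Glutamine synthetases, which reassimilate ammonium, rose in 2 of 3 genes, and in 3 without replicate 3. BnaA02g03140D had 641, 401 and 422 counts at 5 d and 1961, 2313 and 955 at 18 d in WD, and 5430, 3297 and 3701 in late controls, which were the highest of the 4 groups.

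Of 11 glutathione and ascorbate enzymes 6 rose and 1 fell in WD, 9 and 1 without replicate 3, and 8 and 1 in the controls. The WD shares are near those over all annotated genes (56.5% rose and 10.5% fell), so they are no result about this list. BnaC06g25020D, a glutathione S-transferase (an enzyme that joins glutathione to toxic compounds), had no read pair at 5 d and 49.8, 160 and 0 counts at 18 d, a mean at least 20.6-fold above the floor, with replicate 3 at 0 like the early leaves. BnaA01g01600D, with the domain of plant ascorbate peroxidases that remove hydrogen peroxide, changed by −1.43 (SE 0.28, adjusted p = 0.0041). In the controls it changed by −1.02 (adjusted p = 0.015). Of 6 sugar genes 4 rose in WD, with and without replicate 3, and 1 in the controls. The WD share is not far above the 56.5% over all annotated genes. BnaA01g12320D, a trehalose-phosphate phosphatase, had 56.7, 41.5 and 49.9 counts at 5 d and 435, 1099 and 57.0 at 18 d (3.28, SE 0.79, adjusted p = 0.013), with replicate 3 just above the early range. BnaA02g04780D, a raffinose synthase, rose from 6.81, 17.8 and 8.68 to 93.1, 152 and 14.0 counts (2.96, SE 0.79, adjusted p = 0.023). It gave 0.28 (adjusted p = 0.83) in the controls, but the difference was not called with replicate 3 (2.67, adjusted p = 0.36) or without it (3.29, adjusted p = 0.093).

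The study's list of 114 ion transporter genes was read against all genes tested. In WD leaves 17 rose and 1 fell, a larger share of risers than the 8.05% over all genes and a smaller one than the 56.5% over all annotated genes. Their median log2 change was 0.45, and 26 rose and 3 fell without replicate 3. In the controls 52 rose and 5 fell, with a median of 0.87. The difference between WD and control changes was called for none of the 114, with or without replicate 3. Replicate 3 was nearer to the early mean in 15 of the 17 risers. The study chose the list on libraries of this series, so the counts are no independent evidence of direction.

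By element, 5 of 16 calcium genes rose. The CMCU genes, named for a chloroplast member of the calcium uniporter family, had the largest changes among them, with 179, 107 and 78.1 counts of BnaA07g12410D at 5 d and 2201, 1216 and 402 at 18 d. Late values all lay above early ones, by 3.33 on the log2 scale (SE 0.55, adjusted p = 0.0022), and the controls rose by 4.43 (adjusted p = 0.00053). Its partner BnaCnng26490D rose by 3.38 (SE 0.58, adjusted p = 0.0023). BnaA06g01060D, a sodium/calcium exchanger of the NCL type listed under both elements, had 995, 851 and 849 counts at 5 d and 5669, 9803 and 1786 at 18 d (2.61, SE 0.50, adjusted p = 0.0037). Late controls held 2904, 2012 and 2825 counts, with a change of 0.80 (adjusted p = 0.25), but the early control replicate 1 alone was already at 2575.

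Cadmium was represented by ABC transporters, and 2 of its 6 genes rose in WD and 5 in the controls. BnaA07g19610D (ABCG36, an exporter of the plasma membrane with a known part in defence in Arabidopsis) had 152, 267 and 248 counts at 5 d and 5399, 7062 and 598 at 18 d. Replicate 3 was above the early range but near it, and the change was 4.27 (SE 0.88, adjusted p = 0.0055), against 3.34 (adjusted p = 0.01) in the controls. BnaCnng64010D, listed without a symbol, had the largest change among called transporters with more than 3 early read pairs, at 4.41 (SE 0.90, adjusted p = 0.0052).

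Of 18 zinc genes 3 rose, of 22 iron genes 2 and of 4 copper genes 1, and without replicate 3 these were 3, 5 and 1. In the controls 10 zinc, 11 iron and 3 copper genes rose, and 2 zinc genes and 1 iron gene fell. The PCR2 genes BnaC08g39210D and BnaA09g45370D, of a cysteine-rich family with a zinc exporter in Arabidopsis, changed by 4.15 (SE 1.05, adjusted p = 0.017) and 4.07 (SE 0.98, adjusted p = 0.013). BnaA10g03460D (ZIP5, of a family of zinc and iron importers) had 54.5, 21.3 and 27.1 counts at 5 d and 308, 291 and 58.0 at 18 d, so that replicate 3 was just above the highest early value. BnaA10g12280D (COPT1, a copper importer) had 5.67, 5.93 and 5.42 counts and then 81.3, 71.3 and 3.00, with replicate 3 below all early leaves and a change of 3.10 (SE 0.94, adjusted p = 0.042). BnaCnng74920D (VTL1, of a vacuolar iron transporter-like family) rose by 2.41 (SE 0.68, adjusted p = 0.03). In all 5 the controls rose too, by between 2.87 (BnaCnng74920D) and 4.45 (BnaC08g39210D).

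For phosphorus, 2 genes rose and 1 fell of 20 (median log2 change 0.57), while 13 rose and 0 fell in the controls (median 3.30). BnaC05g10330D and BnaC05g49630D (both PHO1;H3, of a family of phosphate exporters) rose by 4.09 (SE 1.21, adjusted p = 0.038) and 1.28 (SE 0.40, adjusted p = 0.05). In the controls they changed by 6.07 (adjusted p = 0.0044) and 0.95 (adjusted p = 0.10). BnaC06g30370D (PHO1-H1) had 61.3, 81.8 and 94.4 counts at 5 d and 40.6, 27.9 and 31.0 at 18 d, with no overlap and a change of −1.26 (SE 0.36, adjusted p = 0.034). In the controls it changed by −0.40 (adjusted p = 0.46). It was the only transporter to fall in WD and was not called without replicate 3 (adjusted p = 0.056).

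Nitrogen and potassium gave 3 risers in WD, while in the controls 9 of 12 nitrogen and 6 of 12 potassium genes rose. BnaC08g15370D (NPF6.3, a nitrate transporter and sensor in Arabidopsis) had 125, 68.8 and 60.7 counts at 5 d and 279, 334 and 144 at 18 d, a change of 1.58 (SE 0.33, adjusted p = 0.0062), with the lowest late value above the highest early one. Late controls held 732, 544 and 486. BnaCnng62050D (AMT2, an ammonium transporter) rose by 1.86 (SE 0.54, adjusted p = 0.034) in WD and by 2.16 (adjusted p = 0.0092) in the controls. BnaA05g35790D (NPF7.3, listed for potassium and nitrate) had 1 read pair at 5 d and 17, 6.68 and 8.0 counts at 18 d in WD, with all 3 replicates above the early leaves, and 160, 116 and 72.8 in late controls. No gene listed for boron, chloride, magnesium, manganese, molybdenum or sulfur passed the test with all libraries. Some of these passed it without replicate 3, among them both SULTR3;1 sulfate transporter genes BnaCnng67820D and BnaC08g23200D (−2.04 and −1.95, adjusted p = 0.0068 and 0.0055), with −1.40 and −0.93 when it was included.

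**Figure D5:**
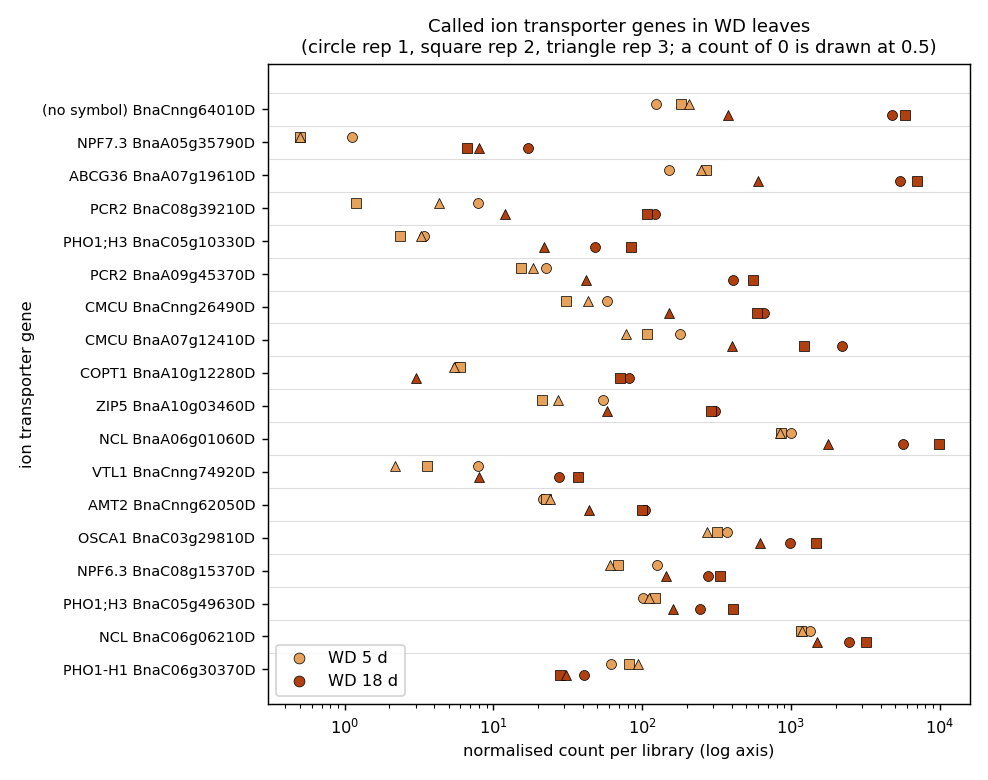
Normalised counts (log axis) of the 18 ion transporter genes called in WD leaves, in each WD library at 5 d and 18 d, ordered by log2 change; circles, squares and triangles are replicates 1, 2 and 3, and a count of 0 is drawn at 0.5. The late triangles, such as 598 counts for ABCG36, mostly lie between the early values and late replicates 1 and 2.

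Of the 2 genes whose change differed from that of the controls with all libraries, neither has an annotation here and neither changed in WD leaves beyond the threshold. BnaC08g00970D had 49.9, 48.6 and 53.1 counts at 5 d and 47.2, 41.2 and 40.0 at 18 d in WD, and 32.4, 25.9 and 20.3 and then 166, 149 and 116 in the controls. The late controls were the highest of the 4 groups, and the WD change minus the control change was −2.70 (adjusted p = 0.0037). BnaA02g12280D had 166, 160 and 180 counts and then 219, 233 and 178 in WD, while the controls went from 388, 391 and 287 to 176, 120 and 132 (difference 1.62, adjusted p = 0.02). Late WD replicate 3 went with its group for BnaC08g00970D, but for BnaA02g12280D it lay within the early WD range, and the WD groups overlapped. Without it the differences were −2.81 and 1.69, with adjusted p = 0.0032 and 0.0076.

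Among the 389 genes called for this difference without replicate 3, a few were named after their values were seen. BnaC07g29830D and BnaAnng30680D, without annotation, differed by −4.07 (adjusted p = 0.0032) and −4.02 (adjusted p = 0.0072) without replicate 3, and by −3.26 and −2.90 with it (adjusted p = 0.1 and 0.17). BnaA05g31720D, also without annotation, had 3 read pairs in early WD leaves and 295, 683 and 29.0 counts in late ones, against 33.6, 33.1 and 75.3 in late controls. BnaC03g74340D, a glycine-rich protein, had 4.54, 5.93 and 2.17 counts at 5 d and 709, 651 and 2.0 at 18 d, and 3.01 to 22.6 in all controls. Replicate 3 was at the early level, and the difference was 6.70 (adjusted p = 0.015) without it and 5.82 (adjusted p = 0.25) with it. BnaC01g13420D, with the phosphoadenosine phosphosulphate reductase domain of enzymes that reduce sulfate for cysteine synthesis, had 233, 256 and 329 counts at 5 d and 98.3, 111 and 106 at 18 d in WD. In the controls it had 267, 227 and 114 and then 978, 713 and 420, the opposite direction. Its changes were −1.39 (adjusted p = 0.02) and 1.81 (adjusted p = 0.0027), and their difference was −3.20 (adjusted p = 0.059) with all libraries and −3.36 (adjusted p = 0.019) without replicate 3, which here lay with its group.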

How the data were processed

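RNA of rapeseed leaf blades was sequenced as pairs of 75-base reads. The authors trimmed the reads with Trimmomatic 0.36 (quality 20, at least 30 bases), removed ribosomal RNA with sortMeRNA 2.1, and mapped and counted them with STAR 2.7.3a on the Brassica napus genome with the Genoscope annotation. The deposited values are counts of read pairs per gene, unnormalised, for each strand and for both together, with replicates kept apart. Up to 20 loci were allowed in mapping, and pairs placed at several loci (7.77% to 9.45% of pairs) were counted on no gene, so values of near-identical copies and homoeologs are uncertain.

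The reverse-strand counts were used, since the forward strand held 0.301% to 0.479% of them. Libraries held 13263953 to 31112368 pairs on genes. Genes with at least 0.6 CPM in at least 3 libraries were kept, which left 54835 of 101040. All 24 libraries were fitted in one model of 8 groups, blocked by replicate number following the study's methods, with TMM scaling and edgeR 4.0.16's quasi-likelihood test (R 4.3.3, limma 3.58.1), and p-values were adjusted by Benjamini-Hochberg over all genes tested (called at 0.05 or below). SEs are approximate, taken from the log2 change and its F value. A normalised count is the TMM-scaled CPM times the mean effective library size. A group at 0 was given a floor of 3 pairs per library, and no fold is given for a group with 1 to 3 pairs in all. Folds and p-values describe the spread between these libraries. An exact test of 3 against 3 cannot go below p = 0.1, so single values were not tested that way.

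The groups, lists and tests were chosen with earlier results of these data known. Gene lists were made by matching words in the study's annotation of its called genes, of which 17 of 20 had members, and no member was found for aquaporins, glucosinolate or flavonoid genes. The clock list had 1 gene, with a log2 change of 0.74 that was not called. The rule for naming genes took the 10 largest called rises and falls among annotated genes with a mean of at least 50 counts, no overlap and one direction in the 3 replicate numbers, the 3 largest each way whatever the annotation, the 5 smallest p each way, up to 2 genes per list or element and direction with a mean of at least 10, and the called differences between treatments. Not every gene so found is named. Genes named outside it are named as chosen after their values were seen, which holds also for the list members shown as examples beside the rule. The alternatives were other libraries in the fit, no block, the likelihood ratio test, DESeq2 1.42.0 and its size factors, other filters, a 2-fold limit, counts of both strands and leaving out each of the 12 libraries of these harvests. On simulated data for the WD comparison (53914 genes), the quasi-likelihood test recovered 13% of 2-fold and 73% of 4-fold changes, with 3 false among 89 calls. The simulation held no library that stood apart like late WD replicate 3, so these rates do not carry over to the real comparison. Tables used pandas 2.3.3 and numpy 2.4.6 under Python 3.11.15, and plots matplotlib 3.10.9. No sequence or coordinate is given, since no genome of the files' build was used here.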

Additional observations from a re-analysis of the deposited data

Results flagged for a closer look

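The changes between 5 d and 18 d differed between WD and control leaves in 2 genes by edgeR's quasi-likelihood test of the difference with Benjamini-Hochberg adjustment. For BnaA02g12280D the WD change minus the control change was 1.62 on the log2 scale (adjusted p = 0.02), with changes of 0.31 in WD and −1.31 in controls. For BnaC08g00970D it was −2.70 (adjusted p = 0.0037), with changes of −0.25 and 2.45. Neither gene has an annotation here, and a cause was not tested. Groups of 3 libraries are too small for the test of single outlying samples.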

How the results depend on the processing

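The counts of called genes depended above all on which libraries were fitted. Between 5 d and 18 d in WD, 4414 genes rose and 1396 fell. The 12 libraries of these harvests gave 3485 fallers, 557 genes whose change differed between treatments (2 in the model of 24 libraries), 32 transporters that rose and 2 that fell, and 25 list members that fell (12 before). The 6 WD libraries alone gave 22 risers and 2 fallers, or 1 and 0 without the replicate block, with 0 transporters and 0 list members either way (17 and 1, and 114 and 12, before), although 11627 and 13480 genes had an unadjusted p of at most 0.05. In those fits 61 and 66 of 67 named WD changes lost their call. The cause was not tested.

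Alternatives chosen after seeing the data left out late WD replicate 3. With the other 11 of the 12 libraries, 9247 genes rose and 7084 fell in WD, 9982 rose and 8074 fell in controls, 4869 differed between treatments, and 39 transporters rose and 6 fell. With the 5 WD libraries alone 6629 rose and 5112 fell and 3 transporters fell, and without the block 8101 and 6960, with 30 transporters rising and 5 falling. In each of the 3 fits 25 list members fell.

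The likelihood ratio test called 479 and DESeq2 599 genes for the difference between treatments and 2 transporters each as fallers, and no filter on low counts gave 6 differences. With a 2-fold limit 773 fallers were left. Why the tools differed was not tested.

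Leaving out each of the 12 libraries of these harvests in turn gave 1544 to 7186 risers and 183 to 4825 fallers in WD, 3138 to 7458 and 2363 to 5542 in controls, 1 to 389 differences between treatments, 6 to 26 transporters that rose and 0 to 3 that fell, and 45 to 144 list members that rose and 2 to 20 that fell. The mean distance within late WD leaves was 0.634 to 1.15 and that from early to late 1.01 to 1.34. Of 83 named changes, 18 to 37 lost their call when a WD library other than late replicate 3 was left out, and 3 when that one was. No direction was reversed.

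Replicate numbers share only a number here: the mean correlation of deviations was −0.016, 0.026 and −0.036 for numbers 1, 2 and 3 over 8 groups. Without the replicate block 4774 genes rose, 1558 fell and 3 differed between treatments.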
